A study of Mus musculus with 12 samples.

Results

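Tbl1xr1 and Nrip1, a pair of genes that encode transcriptional corepressors, were examined here for binding of the nuclear receptor Rev-Erbα in mouse brown adipose tissue. The sites were chosen by the gene name in the authors' annotation, in 2 lists of peaks that had themselves been selected on read density over wild type. All 24 rows that carried either name were taken, out of 13410 in both lists. The list made at 4 °C held 21 of them (15 for Tbl1xr1 and 6 for Nrip1) among 11227 peaks, and the list made at 29 °C held 3 (1 and 2) among 2183. Because the genes were picked for the number and strength of these peaks, the counts and levels below are a description.

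The measurements came from chromatin immunoprecipitation and sequencing (ChIP-seq) with anti-HA beads on brown adipose tissue, a fat depot that burns fuel to make heat. Mice of genotype HA-RevErba, whose Rev-Erbα bears an HA tag, gave 4 libraries after 1 week at 4 °C (chronic cold) and 4 after 1 week at 29 °C (thermoneutrality). Wild-type (WT) mice went through the same pull-down and gave 2 libraries at each temperature. All mice were of strain C57BL/6, and the sources used here give neither their age nor the hour of tissue collection nor how the tag was introduced. The labelled tissue could not be checked against marker genes, since the files hold binding and no expression.

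The 12 libraries held 27.0 to 37.3 M (mega) reads that aligned exactly once, called aligned reads throughout. The HA-RevErba libraries of both temperatures differed by 1.06 M reads on average, less than the libraries of a group spread among themselves (exact permutation test, two-sided, 70 regroupings, p = 0.714, smallest possible p = 0.0286). Every value at a site came from pooled libraries, 1 pool for each genotype at each temperature, so nothing below has a replicate check and no p-value is given for it. Values are FPKM, here the reads in a 200 bp window per kilobase and per M reads of the pool, a read density and not a level of expression. In bulk tissue, fewer cells with a bound site, less binding in each cell and less tagged protein cannot be told apart. The ratio of 4 °C to 29 °C is that of the HA-RevErba densities, and its 95% exact Clopper-Pearson interval covers counting error only. Positions on mouse build mm9 are given as deposited, distances are from the start site of the annotated gene, and a negative distance is upstream.

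Rev-Erbα, encoded by Nr1d1, is a heme-binding nuclear receptor of the circadian clock that lacks the helix through which most receptors bind coactivators. It represses genes by recruiting the corepressor NCoR1, which carries the histone deacetylase HDAC3. TBL1XR1 (TBLR1) and its close relative TBL1X are WD40-repeat subunits of the NCoR complex; they bind histones and take part in the exchange of corepressors for coactivators. NRIP1 (RIP140) binds ligand-activated nuclear receptors through short leucine-rich motifs, recruits histone deacetylases and CtBP proteins, and is known in fat for restraining oxidative and thermogenic genes such as Ucp1. GPS2 and HDAC3 are further parts of the complex that holds TBL1XR1.

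Tbl1xr1 was among the genes with the most peaks. Of the 5451 genes annotated to a peak at 4 °C, 9 (0.165%) had 15 or more, the highest number being 21 at Zfp608, and the median was 1. Nrip1, with 6 peaks, was one of 281 genes (5.16%) with that many or more. Peaks were named by the nearest start site, and these counts were not adjusted for how far away the neighbouring genes lie. Tbl1xr1 had 1 peak at 29 °C and Nrip1 had 2, and all 3 overlapped a 4 °C peak. The windows of the overlapping pairs were shifted by 20 bp at Tbl1xr1 and by 7 and 17 bp at Nrip1. For Tbl1xr1 the shared peak made up 1 of 15 sites at 4 °C, and for Nrip1 2 of 6, against 14.9% of all 4 °C peaks. In the other direction 76.5% of all 29 °C peaks overlapped a 4 °C peak.

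**Figure D1:**
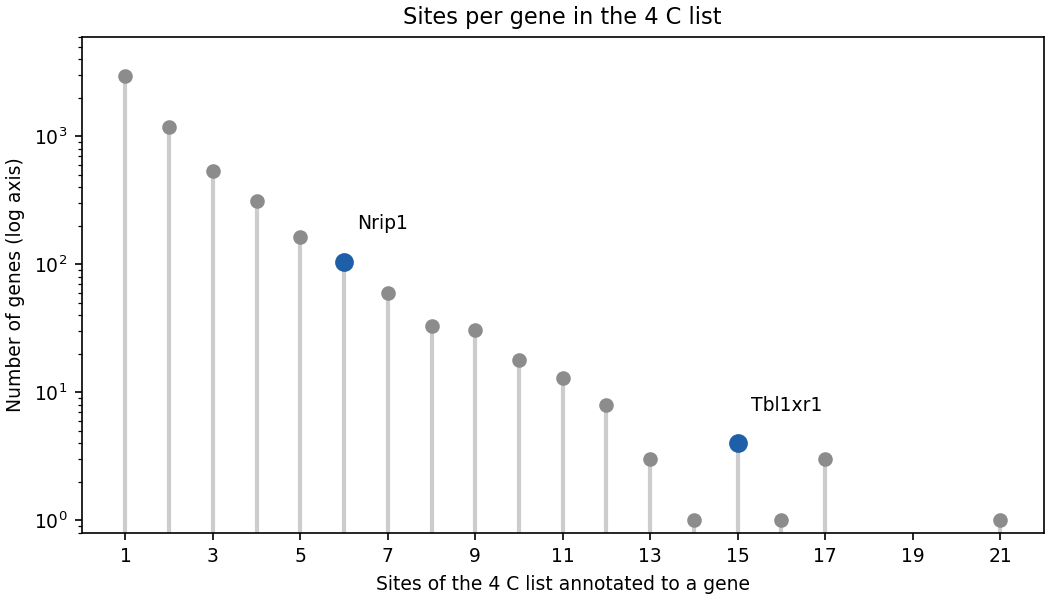
Number of peaks of the 4 °C list annotated to a gene (horizontal axis) and number of genes with that many (vertical axis, logarithmic). Nrip1 is 1 of 105 genes with 6 peaks, and Tbl1xr1 1 of 4 genes with 15, while 2976 genes had a single peak.

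Most of the sites lay far from the genes. Of the 15 Tbl1xr1 sites, 14 were intergenic and upstream, from -80.9 to -700 kb, and 1 was annotated to the promoter. Nrip1 had 5 intergenic upstream sites from -59.5 to -236 kb and 1 in its second intron of 3, at 31.2 kb. Beyond 100 kb lay 11 of 15 and 4 of 6 sites, against 16.5% of the 4 °C list, and intergenic sites made up 44.3% of that list. The genes named are thus the nearest start sites in the authors' annotation, and no file ties a site to the gene it acts on. In the RefSeq gene table of assembly GRCm38.p6, another build, 6 lncRNA genes and 5 pseudogenes lie between Tbl1xr1 and the next protein-coding gene on its upstream side, Agtr1b. The nearest of these is the lncRNA gene Gm31813. Upstream of Nrip1 the same table has 5 lncRNA genes and 3 pseudogenes before Usp25. With another annotation the sites could therefore carry other names. No 4 °C peak of another gene lay between the outermost sites of either gene, as naming by the nearest start site fixes in advance. Past these sites the next 4 °C peaks were 1178 kb (annotated to Mir7007) and 878 kb (Rprl2) away at Tbl1xr1, and 110 kb (4930578N18Rik) and 178 kb (1700041M19Rik) away at Nrip1.

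The Tbl1xr1 promoter was the only one of the pair annotated with a peak. The 200 bp window, centred 0.071 kb downstream of the start (chromosome 3, 21975545 to 21975745), runs from -29 to 171 bp around it. The RefSeq sequence of the 250 bases before the start site on the + strand, chr3:22076402-22076651 of GRCm38.p6, is shown for its composition, with the 29 bases that the window would cover in capitals if both builds place the start at the same base, which was not tested.

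Tbl1xr1 promoter: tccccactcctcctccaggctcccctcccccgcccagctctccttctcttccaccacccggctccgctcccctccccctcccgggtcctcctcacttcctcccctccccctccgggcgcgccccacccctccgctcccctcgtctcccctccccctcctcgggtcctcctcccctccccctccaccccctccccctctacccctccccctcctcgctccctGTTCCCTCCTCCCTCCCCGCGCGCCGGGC

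C or T made up 85.2% of these letters and C or G 76.0%. In the whole 300 bp entry (250 bases before and 50 after the start) the shares were 80.7% and 76.3%, and the medians over all such entries of the table were 49.7% and 52.7%. The half-site AGGTCA, to which Rev-Erbα and many other nuclear receptors bind, was looked for on both strands. It was in none of the 3 promoter entries of the pair (1 for Tbl1xr1 and 2 for Nrip1), and in 16.3% of the 32851 entries of the table. The Tbl1xr1 entry ends 50 bases after the start, while the promoter peak window runs to 171 bp. Most of that window was thus not searched, so whether it holds the half-site is not known. The sequences of the distal windows were not analysed here.

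Tbl1xr1 had its highest densities at 4 sites within a stretch of 59.6 kb. The strongest, at -80.9 kb (chromosome 3, 21894550 to 21894750), had 25.97 FPKM in the cold and 7.74 at 29 °C, while WT had 2.59 and 0.61. It was the shared site of this gene, and in the window of the 29 °C list, 20 bp away, the values were 24.55 and 7.91 FPKM over 2.59 and 0.81 in WT. The site at -141 kb (21834912 to 21835112) had 21.5 and 5.27 FPKM, against 4.8 and 4.2 in WT. Its density at 29 °C was thus close to the WT level, and its WT density at 4 °C was higher than at 99.8% of the 4 °C windows. At -114 kb (21861368 to 21861568) HA-RevErba reached 19.22 and 4.94 FPKM over WT densities of 1.85 and 2.6. At -89.6 kb (21885914 to 21886114) they were 16.32 and 2.89 FPKM against 0.75 and 1.41. These 4 sites held 54.6% of the density summed over the 15 sites at 4 °C, and their ranks by the authors' score among the 11227 peaks were 199, 351, 489 and 819.

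Between and beside these strong sites lay weaker ones. The site at -131 kb (21844813 to 21845013) had 6.52 FPKM in the cold and 2.64 at 29 °C, against 1.48 and 1.41 in WT. Next to it, at -124 kb (21851899 to 21852099), the densities were 5.89 and 0.91 FPKM against 0.19 and 1.8. Only the 4 °C value exceeded WT there. At -119 kb (21856107 to 21856307) the HA-RevErba pools had 5.81 and 1.98 FPKM and the WT pools 0.93 and 0.21. At -118 kb (21857654 to 21857854) they had 7.15 and 2.72 FPKM over 0.93 and 2.4. The last weak site of the stretch, at -88.4 kb (21887119 to 21887319), had 6.6 and 1.41 FPKM over 1.3 and 1.21. In these 5 windows the density at 4 °C spanned 5.81 to 7.15 FPKM, near the median of 7.07 over the whole 4 °C list.

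Outside the stretch the Tbl1xr1 sites were few and mostly weak. A pair of windows lay farthest upstream. The one at -697 kb (21278834 to 21279034) had 10.2 FPKM in the cold and 2.97 at 29 °C, against 0.56 and 1.41 in WT, and the one at -700 kb (21275943 to 21276143) had 4.09 and 2.23 FPKM against 0.75 and 0.81. This last value was the lowest of the gene at 4 °C and stood 3.34 FPKM over WT, where the smallest difference in the whole list was 3.0. Single sites followed at -432 kb (21543174 to 21543374) with 4.95 and 0.5 FPKM over 1.12 and 1.01, and at -347 kb (21628352 to 21628552) with 8.64 and 1.49 FPKM over 1.67 and 0.81. At -198 kb (21777478 to 21777678) the HA-RevErba densities were 4.56 and 0.34 FPKM and those of WT 0.75 and 0.81. The promoter site had 4.56 and 1.74 FPKM over 0.75 and 1.21, so the start site of Tbl1xr1 carried one of its weakest peaks. At -432, -198 and -124 kb the 29 °C density was below that of WT.

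**Figure D2:**
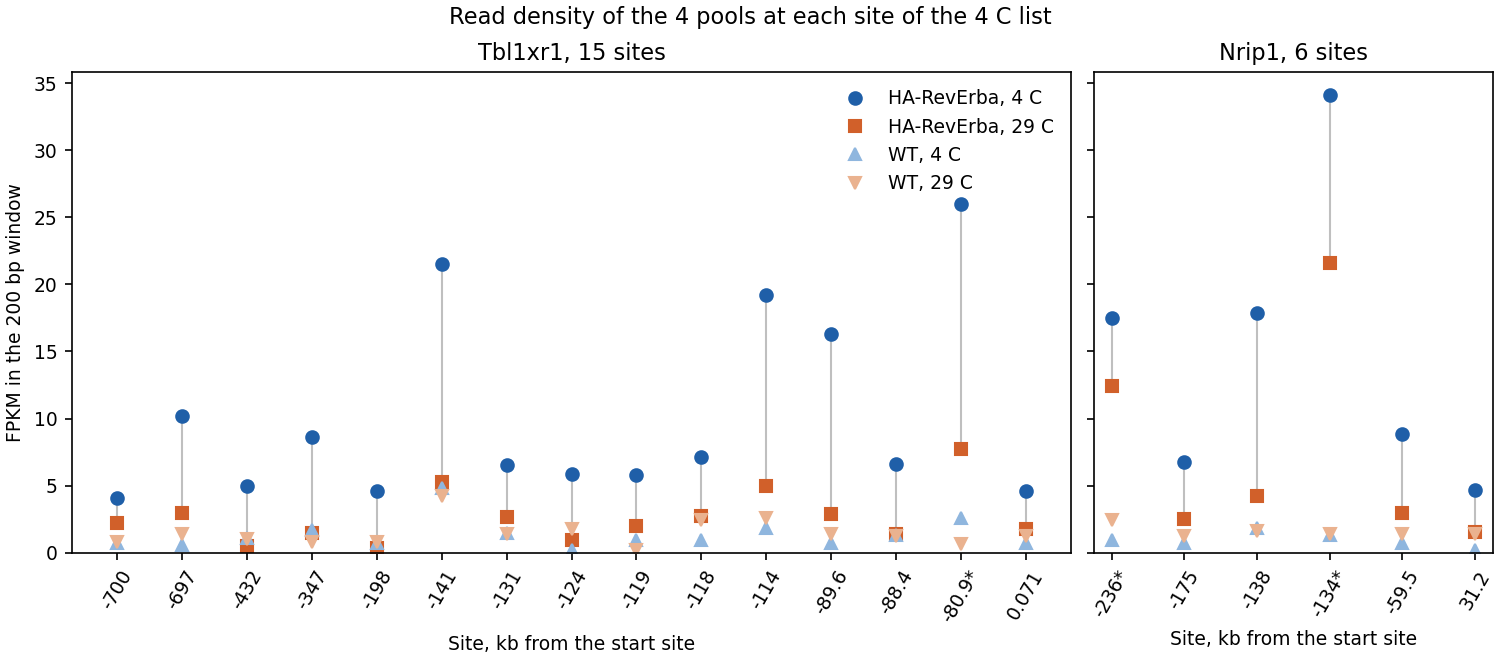
FPKM in the 200 bp window (vertical axis) at each 4 °C site of Tbl1xr1 and Nrip1, ordered by distance from the start site (horizontal axis, in kb); points are the single values of the 4 pools, grey lines join the HA-RevErba pools, and an asterisk marks a site also listed at 29 °C. The 4 °C density is above the 29 °C density at all 21 sites, from 4.09 to 25.97 FPKM at Tbl1xr1 and from 4.64 to 34.12 at Nrip1.

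Nrip1 had fewer sites than Tbl1xr1, with a higher median density at 4 °C (13.2 against 6.6 FPKM). Below the strongest site its next densities (17.89 and 17.5 FPKM) were lower than the next ones at Tbl1xr1 (21.5 and 19.22 FPKM). The strongest Nrip1 site, at -134 kb (chromosome 16, 76507550 to 76507750), had 34.12 FPKM in the cold and 21.56 at 29 °C, while WT had 1.3 and 1.41. It ranked 85th by score in the 4 °C list and alone held 38.0% of the density summed over the 6 sites. Only 3.82 kb farther upstream, at -138 kb (76511368 to 76511568), the densities were 17.89 and 4.2 FPKM against 1.85 and 1.6. The density at 29 °C was thus far lower at -138 kb, where it was 2.63 times WT (interval 1.24 to 6.42). At -134 kb it was 15.4 times WT (7.39 to 38.8). The site at -236 kb (76609139 to 76609339) had 17.5 and 12.43 FPKM over 0.93 and 2.4. This and the -134 kb site were the 2 that the 29 °C list also held. Their values in the windows of that list were 17.73 and 13.09 FPKM over 0.93 and 2.4 at -236 kb. In the 29 °C window at -134 kb they were 34.51 and 21.31 FPKM over 1.3 and 1.41.

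The remaining Nrip1 sites were in the 4 °C list only. At -59.5 kb (76432654 to 76432854) the densities were 8.87 and 2.97 FPKM over 0.75 and 1.41 in WT. At -175 kb (76548030 to 76548230) they were 6.75 and 2.48 FPKM over 0.75 and 1.21. The intronic site at 31.2 kb (76341994 to 76342194) had 4.64 FPKM at 4 °C over 0.19, and 1.57 at 29 °C over 1.41, so at 29 °C it was near the WT level. No peak was annotated to the Nrip1 promoter.

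The Tbl1xr1 sites were unevenly spaced over 700 kb. Neighbouring centres were 1.2 to 264 kb apart, with a median of 8.67 kb, against 13.3 kb over all 5773 gaps between neighbouring 4 °C sites of the same gene. Gaps under 10 kb were 8 of 14, where 43.1% of all such gaps were that short. With a gap over 10 kb ending a cluster, the 15 sites fell into 7 clusters. The densest held 6 sites between -141 and -114 kb, within 26.5 kb, and 43.5% of the summed 4 °C density. A cluster of 3 sites between -89.6 and -80.9 kb held 32.2%. The gap between these clusters was 24.5 kb, so they make up a stretch of 9 sites in 59.6 kb with 75.7% of the summed density. Each of its sites at or inside -131 kb had 7 or 8 other 4 °C sites within 50 kb, a number of 6 or more being seen at 5.18% of all 4 °C peaks. Stretches of this length with 9 or more 4 °C peaks existed at 8 places that shared no peak, the one at Tbl1xr1 included. They held up to 13 peaks, at Col4a1 and Col4a2, genes of basement membrane collagen, and 2 of the 8 held peaks of Col4a1.

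Nrip1 sites were spread over 267 kb with gaps from 3.82 to 90.7 kb and a median of 61.1 kb. Only the sites at -134 and -138 kb were within 10 kb of each other, which left 5 clusters. This pair held 57.9% of the summed 4 °C density of the gene. Tbl1xr1 had its 4 highest densities between -80.9 and -141 kb. At Nrip1 the highest was at -134 kb, and those at -138 and -236 kb were nearly equal (17.89 and 17.5 FPKM).

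**Figure D3:**
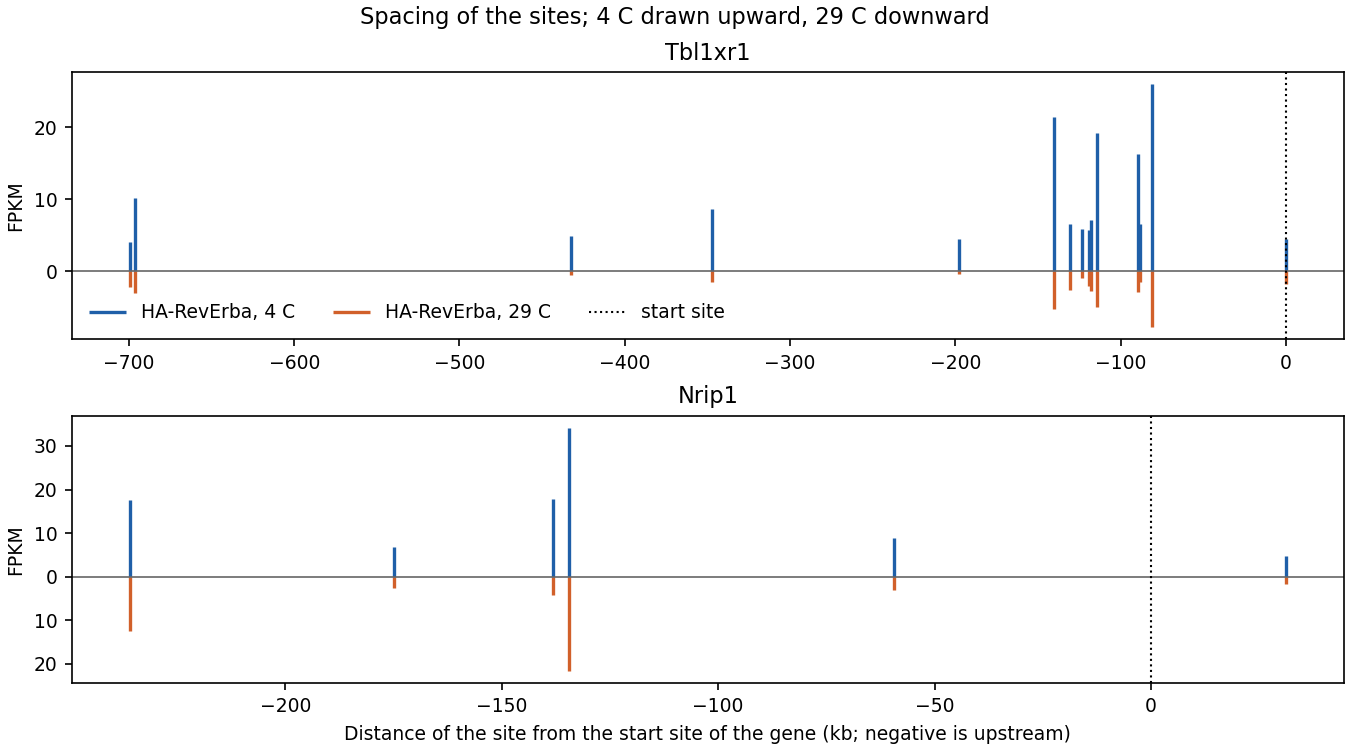
HA-RevErba FPKM (vertical axis) against the distance of each 4 °C site from the start site of Tbl1xr1 or Nrip1 (horizontal axis, in kb); bars go up for the 4 °C pool and down for the 29 °C pool, and the dotted line is the start site. Of the 15 Tbl1xr1 sites, 9 stand within 59.6 kb, and no site lies downstream of its promoter.

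At all 21 sites the density was higher at 4 °C than at 29 °C, and the counting interval of the ratio lay above 1. This does not set the pair apart, since the interval was above 1 at 95.4% of the windows of the 4 °C list, which was selected on 4 °C signal. Ratios of 2 or more were found at 14 of 15 Tbl1xr1 sites and 4 of 6 Nrip1 sites, against 83.4% of the list. They fell to 11 and 3 sites, against 55.5% of the list, with the 29 °C pool scaled by the WT reads of shared windows, and to 9 and 1, against 39.8%, with those of all 29 °C windows. The median ratio was 3.89 over the Tbl1xr1 sites (1.84 to 13.8) and 2.85 over the Nrip1 sites (1.41 to 4.26), and it was 3.05 over the list (10th to 90th percentile, 1.73 to 5.76). Summed over its sites, Tbl1xr1 had 152 FPKM in the cold and 39.8 at 29 °C, a ratio of 3.83 (3.46 to 4.24). Nrip1 had 89.8 and 45.2 FPKM, a ratio of 1.99 (1.79 to 2.2). At 29 °C the 6 Nrip1 sites thus held more summed density than the 15 of Tbl1xr1, while at 4 °C they held less.

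The ratios of single Tbl1xr1 sites varied, and the counting intervals of the largest and the smallest, compared as extremes, did not overlap. The largest, 13.8 at -198 kb (interval 5.12 to 52.4) and the next, at -432 kb (interval 4.35 to 28.3), rested on 4 and 6 reads at 29 °C, where 3 reads correspond to 0.247 FPKM. Among the 4 strong sites the ratio was 5.67 at -89.6 kb (3.95 to 8.36), 4.08 at -141 kb (3.1 to 5.45), 3.89 at -114 kb (2.93 to 5.25) and 3.36 at -80.9 kb (2.66 to 4.27). These intervals overlapped. The clusters of 6 and 3 sites had summed ratios of 3.58 (3.09 to 4.17) and 4.07 (3.39 to 4.91), which also overlapped, and the stretch of 9 sites had 3.78 (3.37 to 4.24). The smallest ratio, 1.84 (1.13 to 3.04), was that of the site at -700 kb, and the promoter had 2.63 (1.57 to 4.57). At the remaining sites the ratio ran from 2.47 at -131 kb to 6.5 at -124 kb.

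At Nrip1 the shared sites had the smallest ratios, 1.58 (1.36 to 1.85) at -134 kb and 1.41 (1.14 to 1.74) at -236 kb. Of all 4 °C windows, 7.09% and 4.52% had smaller ones. The 4 other sites ran from 2.73 (1.79 to 4.29) at -175 kb to 4.26 (3.13 to 5.89) at -138 kb. The intervals at -134 and -138 kb, windows 3.82 kb apart, did not overlap. Being listed at 29 °C requires density there, so a smaller ratio at shared sites is built into the lists: the median was 1.88 over all 1670 shared windows and 3.28 over those in the 4 °C list only. The shared Tbl1xr1 site, with 3.36 (2.66 to 4.27), lay above the 90th percentile of the shared windows (2.98), but its counting interval included that value. In the windows of the 29 °C list the 3 ratios were 3.11 (2.47 to 3.95), 1.62 (1.39 to 1.9) and 1.36 (1.1 to 1.67), all with intervals above 1, as had 66.8% of that list. How the pools are scaled matters for the shared Nrip1 sites. Scaling the 29 °C pool so that WT reads in shared windows were equal divides every ratio by 1.44. The ratio at -236 kb was then 0.978. With the WT reads of all 29 °C windows (1.71) it was 0.826, and 0.928 at -134 kb. Those windows had to exceed WT at 29 °C to be listed, which favours low WT values there. Median WT densities at 4 °C and 29 °C were 1.48 and 0.81 FPKM in the 29 °C list and 1.48 and 1.01 in shared windows. In the 4 °C list, which had to exceed WT at 4 °C, they were 1.12 and 1.21. With the WT reads of all 4 °C windows (1.02) the ratios at -236 and -134 kb were 1.38 and 1.56. Which scaling is right was not tested.

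**Figure D4:**
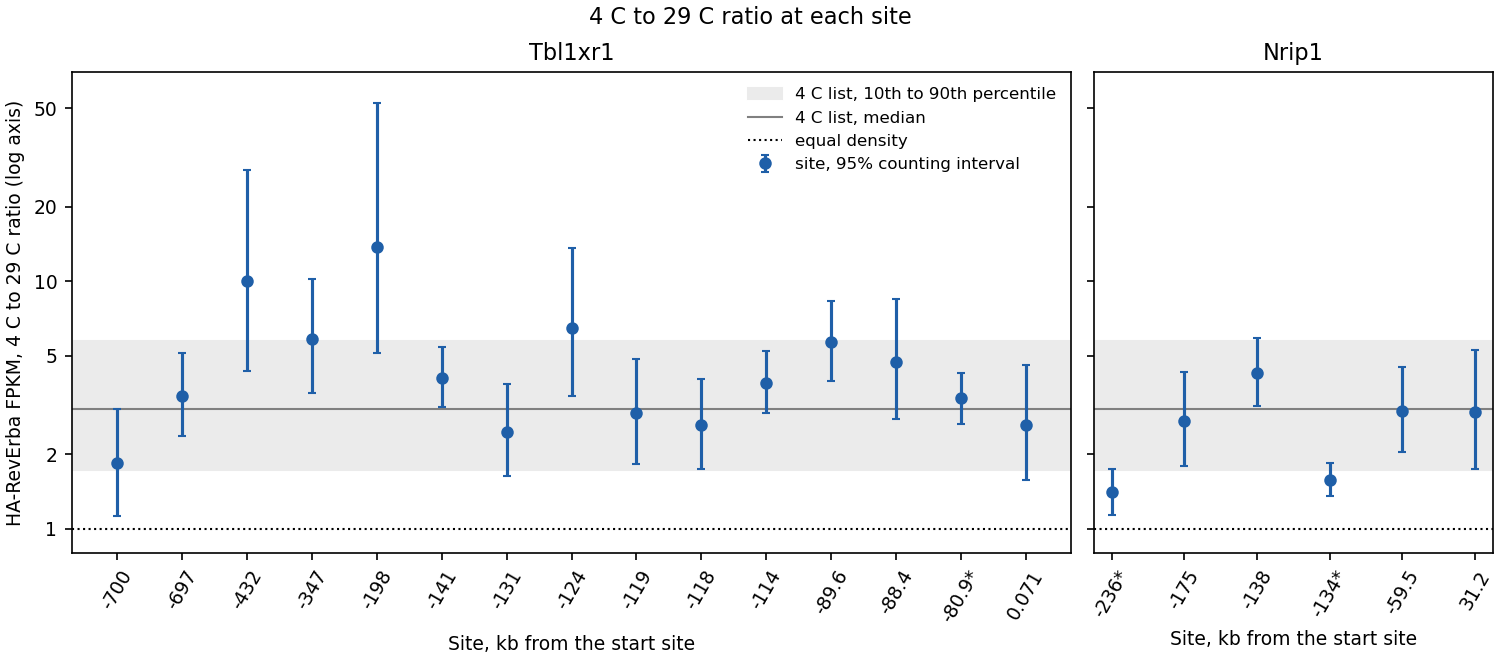
Ratio of HA-RevErba FPKM at 4 °C to that at 29 °C (vertical axis, logarithmic) at each site of Tbl1xr1 and Nrip1 (horizontal axis, kb from the start site); bars are 95% counting intervals, the grey band and line are the 10th to 90th percentile and the median of the 4 °C list, the dotted line marks equal density, and an asterisk marks a shared site. Every interval lies above 1, and the shared Nrip1 sites, at 1.41 and 1.58, lie below the band.

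At 29 °C most of the sites were not detectable over WT at this depth. At 4 °C, the temperature the list was selected on, HA-RevErba exceeded WT at every site by 4.41 to 31.9 times at Tbl1xr1 (median 6.17) and by 9.15 to 26.4 times at Nrip1 (median 15.5), and the list median was 6.3. At 29 °C, which did not enter that selection, the medians were 1.86 and 2.38 times, against 2.2 over the list. The interval of the 29 °C ratio lay above 1 at 3 of 15 Tbl1xr1 sites and 3 of 6 Nrip1 sites, against 41.5% of the list. The Tbl1xr1 sites were those at -80.9 kb (12.9 times, 4.29 to 63.8), -119 kb (9.9, 1.61 to 407, with 1 read in WT) and -114 kb (1.9, 1.03 to 3.78). At Nrip1 they were -134 kb (15.4, 7.39 to 38.8), -236 kb (5.19, 2.89 to 10.3) and -138 kb (2.63, 1.24 to 6.42). At the strong Tbl1xr1 site of -141 kb the 29 °C density was 1.26 times WT (0.758 to 2.17), so binding there was not detectable over WT at this depth. HA-RevErba was below WT at 29 °C at 3 of 15 Tbl1xr1 sites and at 0 of 6 Nrip1 sites, against 13.5% of the list, and at those 3 sites the interval included 1. Both limits that the lists obey, at least 3 FPKM over WT and, within rounding, 4 times WT, were reached at 29 °C by 1 Tbl1xr1 and 2 Nrip1 sites, which are the shared ones, against 13.6% of the list.

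**Figure D5:**
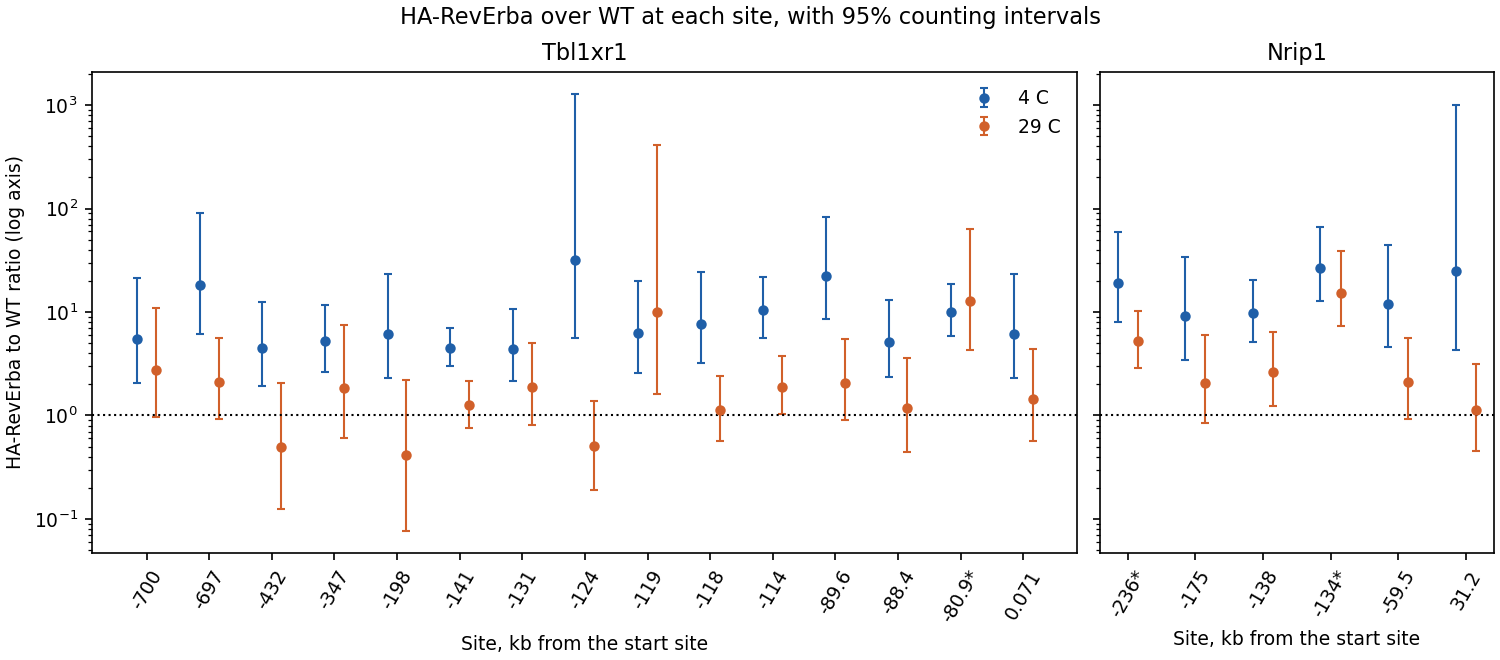
Ratio of HA-RevErba to WT density (vertical axis, logarithmic) at each site of Tbl1xr1 and Nrip1 (horizontal axis, kb from the start site) at 4 °C and at 29 °C, with 95% counting intervals; the dotted line marks equal density and an asterisk a shared site. At 4 °C all 21 intervals lie above 1, and at 29 °C 3 of 15 and 3 of 6 do.

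WT densities at the sites rested on few reads. At Tbl1xr1 they summed to 20.4 FPKM in the cold and 21.9 at 29 °C, and at Nrip1 to 5.77 and 9.44. The interval of the WT ratio between temperatures included 1 at 13 of 15 and 6 of 6 sites, and at 96.3% of the list. The exceptions went in opposite directions: at -80.9 kb the WT pools held 14 reads at 4 °C and 3 at 29 °C (a 4.31-fold ratio, 1.2 to 23.4), and at -124 kb 1 and 9 reads (0.103, 0.00234 to 0.741). The part of the low WT value in the 29 °C listing of the -80.9 kb site was not tested.

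Other genes of the corepressor complexes had peaks as well. Of the 21 genes in 3 lists other than Tbl1xr1 and Nrip1, which were chosen for their peaks, 7 were annotated to a 4 °C peak and 3 to a 29 °C peak, where 21.8% and 6.3% of protein-coding genes were. With the chosen pair the counts are 9 and 5 of 23. In the NCoR complex these were Ncor1, Tbl1x and Tbl1xr1 of 5 genes, without Hdac3 and Gps2. Among 7 receptor-bound and CtBP corepressors they were Nrip1, Lcorl and Ctbp2, and among 11 genes of other repressor complexes Hdac2, Bcor and Bcl6. The 29 °C list held Tbl1x, Tbl1xr1, Nrip1, Hdac2 and Bcl6. The lists were written with results of these data known.

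Ncor1, which encodes the scaffold that holds TBL1XR1, fell outside the rule for naming genes by score and was picked after its values were seen. It had 1 peak, at -7.47 kb, with 6.68 and 1.82 FPKM over 1.67 and 1.8 (ratio 3.68, 2.28 to 6.19). This was less dense than the strongest site of Tbl1xr1 or Nrip1, which were picked for strong peaks. The median 4 °C density over all sites was 6.6 FPKM at Tbl1xr1 and 13.2 at Nrip1. Tbl1x, the relative of Tbl1xr1, had 2 peaks, the higher a shared intronic site with 12.01 and 4.2 FPKM over 1.12 and 1.01 (ratio 2.86, 2.07 to 4.01). Bcl6, a zinc-finger repressor that binds NCoR, had 10 peaks, the highest with 18.91 and 4.37 FPKM over 2.04 and 2.0 (ratio 4.34, 3.21 to 5.95). Hdac2, a class I histone deacetylase, had 2 peaks, the higher a shared site with 12.48 and 6.51 FPKM over 1.12 and 1.6 (ratio 1.92, 1.46 to 2.55). The highest-scoring site did not stand for all sites of a gene: the median ratio over all of them was 5.09 at Hdac2, 2.37 at Bcl6 and 2.91 at Tbl1x. Over the 7 corepressor genes other than Tbl1xr1 and Nrip1, the ratio at the highest-scoring site had a median of 2.86 and ran from 1.92 to 4.34. Of 8 coactivator genes listed for contrast, Ncoa1, Ncoa3, Ppargc1a and Ppargc1b had 4 °C peaks, with a median of 3.26 (2.34 to 3.95), so the ranges of the 2 sets overlapped. At the highest-scoring sites of the coactivator genes named by the rule, HA-RevErba densities were 16.4 and 7.0 FPKM at Ppargc1b, 14.05 and 3.63 at Ppargc1a, which encodes the thermogenic coactivator PGC-1α, and 13.34 and 3.38 at Ncoa1. The ratios at these sites were 2.34, 3.88 and 3.95, and the medians over all sites of the genes were 2.79, 2.24 and 3.88. WT densities there were 2.22 and 2.8, 2.96 and 1.6, and 1.67 and 2.4 FPKM.

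Among the 9 genes with 15 or more 4 °C peaks, Tbl1xr1 had the highest median ratio, 3.89, and the fewest 29 °C peaks, 1. The limit of 15 is the number at Tbl1xr1 itself, and Dusp6, with 12 peaks, had a median ratio of 3.8. Klf4, which encodes a Krüppel-like factor, had 17 peaks with a median ratio of 3.51, 4 of them shared. Galnt18 had 15 with 3.34 and Col4a2 17 with 3.18. Plpp3 had 17 (2.82), Celf2 16 (2.69), Nav2 15 (2.5), Zfp608 21 (2.41) and H2afy3 15 (1.99). The single-site ranges of these genes overlapped that of Tbl1xr1, and no test of the difference was possible with 1 pool a group.

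The genes whose pool values were most like those of each corepressor gene were found from the 4 pool means of log2(FPKM + 0.5) over the 4 °C sites, as a Euclidean distance among genes whose number of sites differed by at most 3. For Tbl1xr1, with 19 genes compared, these were Dusp6 (distance 0.207, 12 sites), Dlc1 (0.257, 13 sites) and 1700019E08Rik (0.293, 14 sites). Their median ratios were 3.8, 2.98 and 3.31, against 3.89 at Tbl1xr1. For Nrip1, with 1239 genes compared, the most alike were Kcnq1ot1 (0.385, 3 sites), Mir3099 (0.394, 3 sites) and Jade1 (0.411, 6 sites). Median ratios at these were 2.78, 2.48 and 2.91, against 2.85 at Nrip1. The mean log2 levels at Tbl1xr1 were 3.16 (HA-RevErba 4 °C), 1.4 (HA-RevErba 29 °C), 0.72 (WT 4 °C) and 0.82 (WT 29 °C). Those at Nrip1 were 3.66, 2.47, 0.45 and 1.03 in the same order, so the corepressor genes differed most in the HA-RevErba pool of 29 °C.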

How the data were processed

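The submitters' processing notes name Bowtie2 2.1.0, HOMER 4.10 and mouse build mm9, with no roles. Settings for calling peaks were not stated in any source used here. Per the file headers, the authors listed peaks on pooled libraries, 1 list per temperature, with the nearest gene and the FPKM of 4 pools. The deposited FPKM carry a constant of 0.01. Less this constant, the values of a pool were whole multiples of the value of 1 read (100% within 0.01 FPKM), which gave the reads per window and pools of 63.8 M (HA-RevErba 4 °C), 60.8 M (HA-RevErba 29 °C), 27.1 M (WT 4 °C) and 25.1 M reads (WT 29 °C), or 49.8%, 49.2%, 43.9% and 39.5% of the aligned reads. The peak score deposited by the authors equals reads per 10 M reads of the pool. No source used here says if starts are 0-based or 1-based.

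Ratios and exact Clopper-Pearson intervals came from these reads (Python 3.11.15, scipy 1.17.1), checked on simulated data. Without molecular identifiers, reads need not be independent molecules, and intervals cover counting error only. Lists were called shared at an overlap of 1 bp. List genes were matched by gene ID (23 of 23 corepressor genes found in the table; 1 listed gene is not reported here). Each list gene was represented by its highest-scoring 4 °C site. Genes were named by fixed rule: both members with all sites, list genes with a site by score (up to 8), genes with 15 or more sites (up to 8 besides Tbl1xr1), and the 3 genes most alike. The genes, lists and rules were chosen with earlier results of these data known. Nothing says that each library is 1 animal, so the test on depth measures only the spread between libraries.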

Additional observations from a re-analysis of the deposited data

How the results depend on the processing

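The 4 °C to 29 °C ratio stayed above 1 at all 15 Tbl1xr1 sites under each scaling of the pools and with a pseudocount. The lowest value was 1.08, at -700 kb with the WT reads of all 29 °C windows. Ratios below 1 were found at Nrip1 only. These were at -236 kb with the WT reads of shared windows (0.978) or of all 29 °C windows (0.826), and at -134 kb with the latter (0.928). Both scalings used windows that had to exceed WT at 29 °C, which favours low WT values there. No counting interval is given for a scaled ratio, so whether any of them differs from 1 was not tested. Median ratios at Tbl1xr1 and Nrip1 were 2.7 and 1.98 with the WT reads of shared windows and 2.28 and 1.67 with those of all 29 °C windows. They were 10.3 and 4.96 with WT subtracted, where 3 of 15 Tbl1xr1 sites had no ratio because WT was higher at 29 °C and were counted as largest. In the windows of the 29 °C list, 1 and 2 sites, they were 3.11 and 1.49, and with a pseudocount of 0.5 FPKM the Nrip1 median was 2.46. The WT reads of all 4 °C windows (factor 1.02), aligned reads (0.986) and a limit of 5 FPKM over WT moved neither median by over 1.5 times. Among 4 °C sites, a limit of 5 FPKM over WT left 10 of Tbl1xr1 and 5 of Nrip1. A limit of 6 times WT left 9 and 6, where the median of the 4 °C list was 6.3 times. A distance within 100 kb left 4 and 2, where 16.5% of the list lay beyond it, and within 50 kb 1 and 1. Of the 29 °C sites, 6 times WT left 1 of Nrip1, where the median of the 29 °C list was 7.29 times. Within 100 kb lay 0 29 °C sites of Nrip1, and within 50 kb 0 of both genes. Shares of the lists at the other limits were not counted. Of corepressor genes, 1 had a 29 °C site within 50 kb. Shared sites and clusters did not change by over 1.5 times. No paired analysis was possible because binding values came from pools, and for the same reason no library could be left out. A count of 3 reads is worth 0.553 FPKM in the WT pool of 4 °C and 0.598 FPKM in that of 29 °C, so WT values at most sites rest on few reads.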
